A study of Mus musculus with 6 samples.

Results

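The PLAG zinc finger family of the mouse has 3 genes, Plag1, Plagl1 and Plagl2, and all 3 were measured in bone marrow stem and progenitor cells of mice labelled p65 knockout (KO) and p65 wild-type (WT). Each gene was found through a table row annotated with its symbol alone. Each had 1 such row, so the family makes up 3 of the 19938 genes compared. The protein p65, also called RelA, is one of the DNA-binding NF-κB proteins. The study holds 3 KO and 3 WT mice with 1 array each, and per the series title the deletion was made in the hematopoietic compartment. Neither the Cre driver, the strain, the age nor any treatment of the mice is given in the labels. From both genotypes, cells negative for lineage markers and for Flk2 but positive for c-kit and Sca-1 were sorted straight into lysis buffer, so the RNA is that of a mixed pool of early cells from 1 mouse. The members were chosen by the KO minus WT signal difference of Plag1 on these same arrays, so the family's own differences are given here as a description with no test.

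PLAG proteins are C2H2 zinc finger transcription factors that bind a bipartite GC-rich DNA element. PLAG1, the pleomorphic adenoma gene, is switched on by promoter-swapping translocations in human salivary gland adenomas, and the growth factor gene IGF2 is its best known target. PLAGL1, also known as ZAC1 or LOT1, restrains proliferation, is imprinted with expression from the paternal allele, and in the mouse controls a network of other imprinted genes. PLAGL2 acts as a growth-promoting factor, and in mice Plag1 and Plagl2 both cooperate with the Cbfb-MYH11 fusion in acute myeloid leukemia. In human blood stem and progenitor cells PLAG1 has been linked to self-renewal and to the RNA-binding protein gene MSI2.

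The promoter of Plagl1 is shown because it is the family member whose start site lies in an imprinted region and because it can be read for the family's own binding element. RefSeq windows of build GRCm38.p6, running from 250 bases before a start site to 50 bases after it, were matched by symbol. A window was matched for 1 of the 3 members, Plagl1. It lies at chr10:13090582-13090881 on the plus strand. The capitals mark matches to the PLAG element, searched on both strands as GAGGC or GGGGC followed after 6 to 8 bases by GGG.
Plagl1 window: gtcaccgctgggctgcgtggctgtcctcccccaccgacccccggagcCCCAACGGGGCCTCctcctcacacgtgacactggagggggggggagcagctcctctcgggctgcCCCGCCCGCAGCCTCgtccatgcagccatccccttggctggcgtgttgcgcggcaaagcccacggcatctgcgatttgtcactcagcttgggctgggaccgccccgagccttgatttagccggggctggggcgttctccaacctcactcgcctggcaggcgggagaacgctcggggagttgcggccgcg
The window holds 2 matches, both read on the minus strand, and 22.7% of all 32851 windows hold at least 1. It has 26 CpG dinucleotides and a GC content of 70.7%, and 16.9% of windows have as many CpGs or more. The κB consensus, the element bound by NF-κB dimers, was searched on both strands and gave 0 matches in the window, against 8.46% of windows with at least 1. A match is a string of letters and not a shown binding site.

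Array medians ran from 5.72 to 5.75 in KO and from 5.81 to 5.98 in WT on the log2 scale, and the number of arrays limits the precision. WT replicate 1 stood apart, correlating with the others at 0.924 to 0.943 and having an array weight of 0.116, against 0.935 to 2.20 for the rest. Calls that change without it are given below. Rela, the deleted gene, had 7.33, 7.48 and 7.35 in KO against 7.52, 7.89 and 7.92 in WT, a log2 difference of -0.39 (limma adjusted p = 0.209, range 0.0292 to 0.486 over 15 alternatives) that was -0.51 without WT replicate 1 and then passed (limma adjusted p = 0.04). Its row may cover parts of the gene outside the deletion, so the level is a weak check of the labels. Of the genes used in the sort, Kit (c-kit) had a mean of 10.1 in KO and 10.4 in WT and Flt3 (Flk2) 7.67 and 7.61. Flt3 and 10 markers of mature lineages, 11 genes in all, had means of 3.11 (Ms4a1) to 8.92 (Itga2b) in KO and 3.63 (Ms4a1) to 8.89 (Itga2b) in WT. The megakaryocyte genes Itga2b and Gp9 were the brightest of these, Gp9 with means of 8.50 in KO and 8.68 in WT, and the myeloid integrin gene Itgam had 6.94 in KO and 6.74 in WT.

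Plag1 is the member with by far the greatest difference. Its log2 signal was 4.55, 5.05 and 5.11 in the KO arrays, against 6.52, 7.18 and 7.03 in the WT arrays. All 3 KO values lay below all 3 WT values, with a gap of 1.41 between the highest KO and the lowest WT array. The means were 4.90 ± 0.31 in KO and 6.91 ± 0.35 in WT (SD, n = 3 each). The log2 difference of -2.00 (SE 0.22) corresponds to a signal 4.01-fold higher in WT than in KO and to 6.11 times the pooled SD within groups. No other gene of the 19938 had a lower difference, and over 15 alternative settings Plag1 ranked between 1 and 6 from the lowest. This rank is what brought the gene to notice. In limma 1 of the 3 members, Plag1, passed an adjusted p of 0.05, as did 0.818% of all genes. The call says nothing further, since that contrast led to the choice of the family. It was lost when any 1 KO array was left out, where 0 genes passed as lower in KO.

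**Figure D1:**
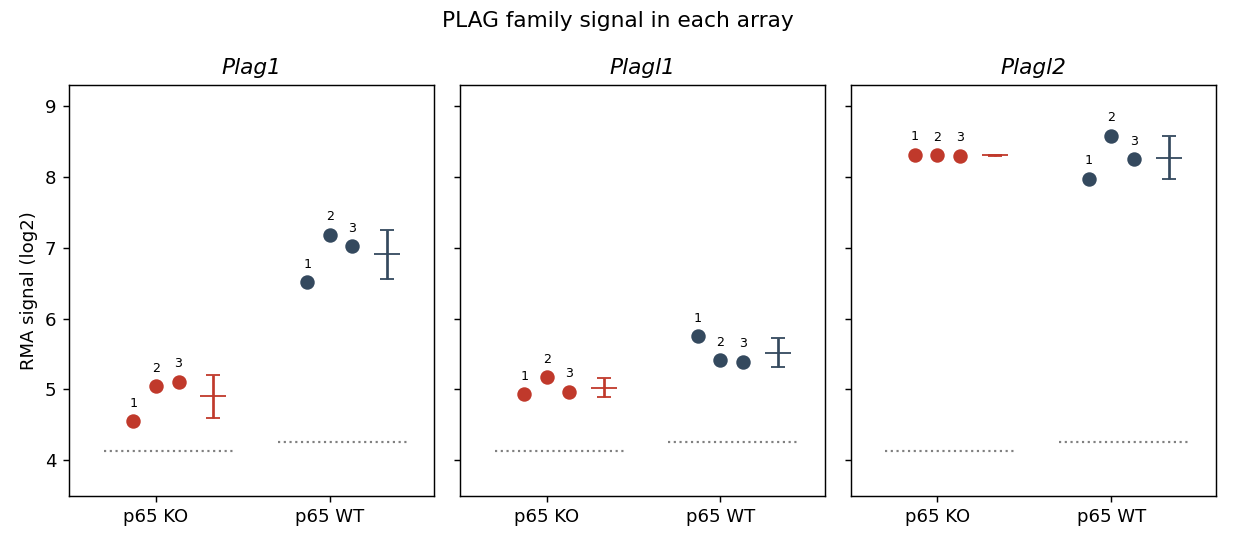
Log2 signal of Plag1, Plagl1 and Plagl2 (vertical axis) in each of the 3 p65 KO and 3 p65 WT arrays, with the replicate number above each point and the group mean ± SD beside the points; the dotted line marks the highest Y-linked gene signal of the group's arrays. KO points of Plag1 lie between 4.55 and 5.11 and WT points between 6.52 and 7.18, whereas the Plagl2 points of the groups overlap.

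Plagl1 differed in the same direction and by less. The KO arrays had 4.93, 5.18 and 4.96, and the WT arrays had 5.75, 5.41 and 5.39. The groups did not overlap, but the gap was 0.22 and 34.6% of all genes had groups that did not overlap. Means were 5.02 ± 0.13 in KO and 5.52 ± 0.20 in WT (SD, n = 3 each), a log2 difference of -0.50 (SE 0.16), or 2.87 times the pooled SD. WT replicate 1 had the highest value of the gene, and without it the difference was -0.38. A lower difference than that of Plagl1 was found in 6.36% of all genes.

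Plagl2 had nearly the same signal in both genotypes. It measured 8.31, 8.31 and 8.30 in KO, against 7.97, 8.58 and 8.25 in WT. The WT arrays enclosed the KO arrays, and the KO values spanned 0.01 where the WT values spanned 0.61. The means of 8.31 ± 0.01 in KO and 8.27 ± 0.31 in WT (SD, n = 3 each) differed by 0.04 (SE 0.17), which is 0.168 times the pooled SD. The sign was not settled, as the difference was -0.27 after quantile normalization, -0.29 after cyclic loess normalization, -0.06 with array weights and -0.11 without WT replicate 1.

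Ratios within an array remove any shift shared by its rows, but not a shift that varies with signal level. Because Plag1 was chosen for its own difference, ratios against it are a description. The log2 signal of Plag1 minus that of Plagl2 was -3.76, -3.26 and -3.19 in the KO arrays and -1.46, -1.40 and -1.23 in the WT arrays. The difference between genotypes in this ratio was -2.04. Its SD among WT arrays was 0.12, where Plag1 and Plagl2 alone had SDs of 0.35 and 0.31. Among KO arrays its SD was 0.31, where Plag1 and Plagl2 alone had 0.31 and 0.01. For Plag1 minus Plagl1 the difference between genotypes was -1.51, with SDs of 0.26 in KO and 0.55 in WT. For Plagl1 minus Plagl2 it was -0.53, with overlapping groups: -3.38, -3.13 and -3.34 in KO and -2.22, -3.17 and -2.86 in WT. The ratio differences against Plagl2 were smaller after renormalization. Plag1, Plagl1 and Plagl2 had differences of -1.96, -0.32 and -0.27 after quantile normalization. After cyclic loess normalization they had -1.92, -0.30 and -0.29.

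The low end of the scale limits how the Plag1 and Plagl1 differences can be read. These arrays carry high Xist (10.1 to 10.8), so the Y-linked genes Eif2s3y, Uty and Kdm5d give a rough guide to signal without transcript, and the highest of them lay at 4.05 to 4.13 in KO and 4.08 to 4.26 in WT. Probes differ in background, so the guide is approximate. Plag1 lay 0.50, 0.92 and 1.02 above that guide in the KO arrays and 2.40, 2.93 and 2.95 above it in the WT arrays. Plagl1 lay 0.87 to 1.05 above it in KO and 1.15 to 1.64 in WT, and Plagl2 lay 4.18 to 4.26 above it in KO and 3.86 to 4.33 in WT. The sizes of the differences of Plag1 and Plagl1 are therefore uncertain.

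Across 15 alternative settings the Plag1 difference stayed between -2.20 and -1.83 and that of Plagl1 between -0.57 and -0.30, all negative. The Plagl2 difference ran from -0.29 to 0.19, negative in 4 settings and positive in 11. The SD of the log2 signals within an array was 2.26 to 2.29 in KO. It was 2.22 in WT replicates 2 and 3 and 2.03 in WT replicate 1. Fold changes varied with signal level: in 3 equal groups of 6646 genes the median log2 difference was -0.22 in the dimmest, -0.09 in the middle group, which holds Plag1 and Plagl1, and 0.30 in the brightest, which holds Plagl2. Without WT replicate 1 these medians were -0.09, -0.08 and 0.13. The part of this trend in the Plagl1 difference was not tested, while the Plag1 difference was -1.96 and -1.92 after the quantile and cyclic loess normalizations.

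**Figure D2:**
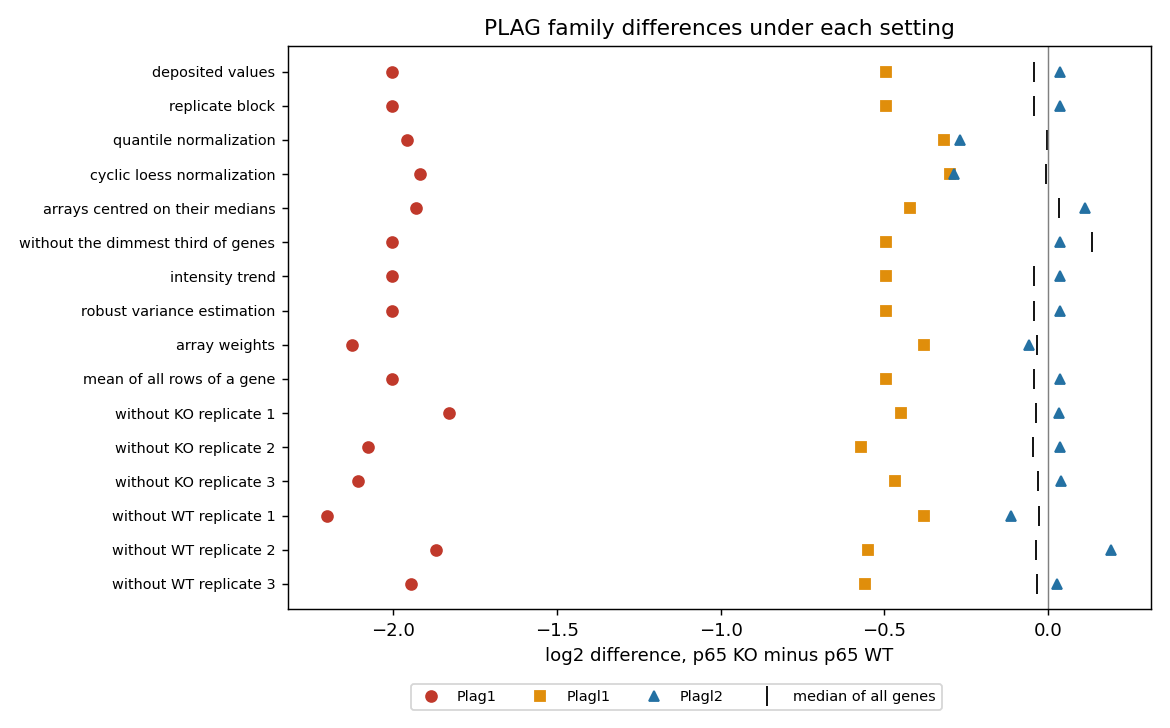
Log2 difference, p65 KO minus p65 WT (horizontal axis), of Plag1 (circles), Plagl1 (squares) and Plagl2 (triangles) for the deposited values and 15 alternative settings (rows), with the median of all genes as a tick. Plag1 stays between -2.20 and -1.83 throughout, and Plagl2 crosses 0.

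The genes of most alike pattern were those with the smallest root mean square difference from the member over the 6 arrays, once each gene's own mean was removed. For Plag1 the nearest of 17139 genes was Tox, which encodes an HMG-box nuclear protein, at a distance of 0.34 on the log2 scale. Tox had 5.55, 5.70 and 5.53 in KO and 6.86, 7.04 and 7.41 in WT, a log2 difference of -1.51. Mmrn1, which encodes the platelet and endothelial protein multimerin 1, lay at 0.38, as did Bgn, the gene of the matrix proteoglycan biglycan. Plxdc2 (0.41), Ndn (0.42), the stem cell transcription factor genes Hlf (0.43) and Mecom (0.47) and the transglutaminase gene Tgm2 (0.48) completed the 8. Ndn encodes the growth suppressor necdin and is, like Plagl1, an imprinted gene expressed from the paternal allele.

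The log2 differences of the 8 genes ran from -1.65 to -1.13, smaller than that of Plag1. They were picked for following the KO and WT values of Plag1, so their differences between genotypes, and the lack of overlap between their groups, follow from that choice and are given with no test. The set itself depended on single arrays. Of the 8 genes, 2 were among the nearest 8 without KO replicate 1, 8 without KO replicate 2 and 7 without KO replicate 3. Without WT replicates 1, 2 and 3 the numbers were 4, 3 and 6.

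**Figure D3:**
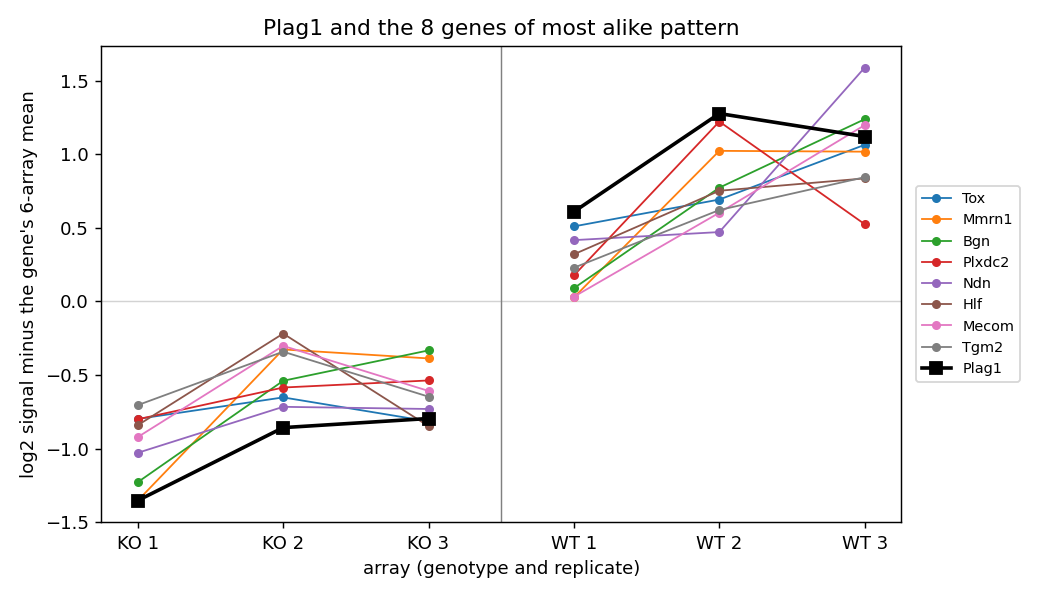
Log2 signal minus the gene's own mean over 6 arrays (vertical axis) for Plag1 (black squares) and the 8 genes of most alike pattern in the p65 KO and p65 WT arrays (horizontal axis). All 9 lines lie below 0 in the KO arrays and above it in the WT arrays, with Plag1 highest of the 9 in WT replicate 1.

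Plagl1 and Plagl2 had many close neighbours in pattern, since both varied little. For Plagl1, with an SD over the 6 arrays of 0.31, the nearest were Lrrtm2, Prl7d1, Ninj2 and Scd4 at 0.04 to 0.05, and 2605 genes lay within 0.2. For Plagl2 the nearest were C8g, Wdfy1, Sh3bgrl and Man2a2 at 0.02 to 0.03, with 4347 genes within 0.2. For Plag1 there were 0 within 0.2.

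Some markers of cell state also differed between the genotypes. Of 12 measured committed myeloid markers 9 rose and 0 fell in limma, where 0.687% of all genes rose and 0.13% fell. Without WT replicate 1 the counts were again 9 and 0, where 3.28% of all genes rose. All 12 differences were positive, with Elane (neutrophil elastase) 3.98 higher and Prtn3 (proteinase 3) 2.09 higher in KO on the log2 scale. The smallest was that of Lyz2 (0.02). The markers' summed linear signal was 15889 to 18486 in KO arrays and 4505 to 5892 in WT arrays. Of 11 measured stem cell markers 0 rose and 1 fell, Hlf, and their median log2 difference was -0.69, with 9 of 11 negative, as were 54.1% of all genes. Cd34 (0.04), Hoxb5 (0.07), Vwf (-0.04) and Slamf1 (-0.09) differed little between the genotypes. With the replicate block 4 of the 11 stem cell markers fell (Hlf, Mecom, Esam and Robo4), where 0.451% of all genes fell. Without WT replicate 1 the number was 7 (Procr, Fgd5 and Kit in addition), where 1.38% of all genes fell, with a median of -0.59. Their summed linear signal was 3575 to 4422 in KO arrays and 4226 to 5524 in WT arrays. For 11 measured markers of mature lineages and Flk2 the sums were 1243 to 1650 in KO and 1278 to 1647 in WT. Of these 11 markers 0 were called, where 0.818% of all genes were. Log2 array signals have no true 0. The part of cell makeup in the Plag1 difference was not tested, and in such pooled cells a smaller number of Plag1-expressing cells cannot be told apart from less Plag1 RNA per cell.

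Genes around each member on its chromosome were described next, to see whether the Plag1 difference extended along chromosome 4. The 5 nearest measured genes on each side of each member were taken in the order of the RefSeq table of assembly GRCm38.p6. Of these 30 genes 0 passed limma over all genes, where 0.818% of all genes did. Of the 30 genes 5 had an unadjusted p under 0.05, where 21.6% of all genes did. The neighbours' median log2 difference was 0.09, against -0.04 over all genes. The sign of this median was not settled, as it was 0.0032 after quantile normalization, -0.04 with 15 of 30 genes negative after cyclic loess normalization and 0.04 without WT replicate 1. The nearest genes to Plag1 are Mos, the germ cell kinase gene, and Chchd7, which encodes a mitochondrial intermembrane space protein and whose human counterpart is a fusion partner of PLAG1 in salivary adenomas. Chchd7 had 9.40 ± 0.03 in KO and 9.28 ± 0.14 in WT (SD, n = 3 each), a log2 difference of 0.12 (SE 0.14) that turned to -0.21 after quantile and -0.23 after cyclic loess normalization. Mos had 4.84 ± 0.22 in KO and 5.18 ± 0.12 in WT (SD, n = 3 each), a difference of -0.34 (SE 0.16). The 10 neighbours of Plag1 thus ran from -0.36 (Penk, named after its value was seen) to 0.38 (Tgs1, likewise), where Plag1 had -2.00.

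Beside Plagl1, Sf3b5, a splicing factor gene, had a log2 difference of 0.50 (SE 0.17) and Zc2hc1b one of -0.35 (SE 0.23). The smallest p among all neighbours belonged to Fuca2, a fucosidase gene (0.79, SE 0.17), and Ltv1, a ribosome assembly gene (0.68, SE 0.17), both on the Plagl1 side of chromosome 10. Neither passed on all 6 arrays (limma adjusted p = 0.0727 and 0.0991), and both did without WT replicate 1 (0.0317 and 0.0417), within ranges of 0.0143 to 0.298 and 0.0196 to 0.373 over 15 alternatives. The neighbour Utrn, the utrophin gene, was then the only other one to pass, with a difference of -0.63 (0.0393). Pofut1, which encodes a fucosyltransferase acting on Notch and shares a divergent promoter with Plagl2, had 7.69 ± 0.06 in KO and 7.60 ± 0.27 in WT (SD, n = 3 each), a difference of 0.09 (SE 0.17). Tspyl3, on the other side of Plagl2, had a difference of 0.09 (SE 0.21). The signs of Pofut1 and Tspyl3 turned after quantile and cyclic loess normalization.

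**Figure D4:**
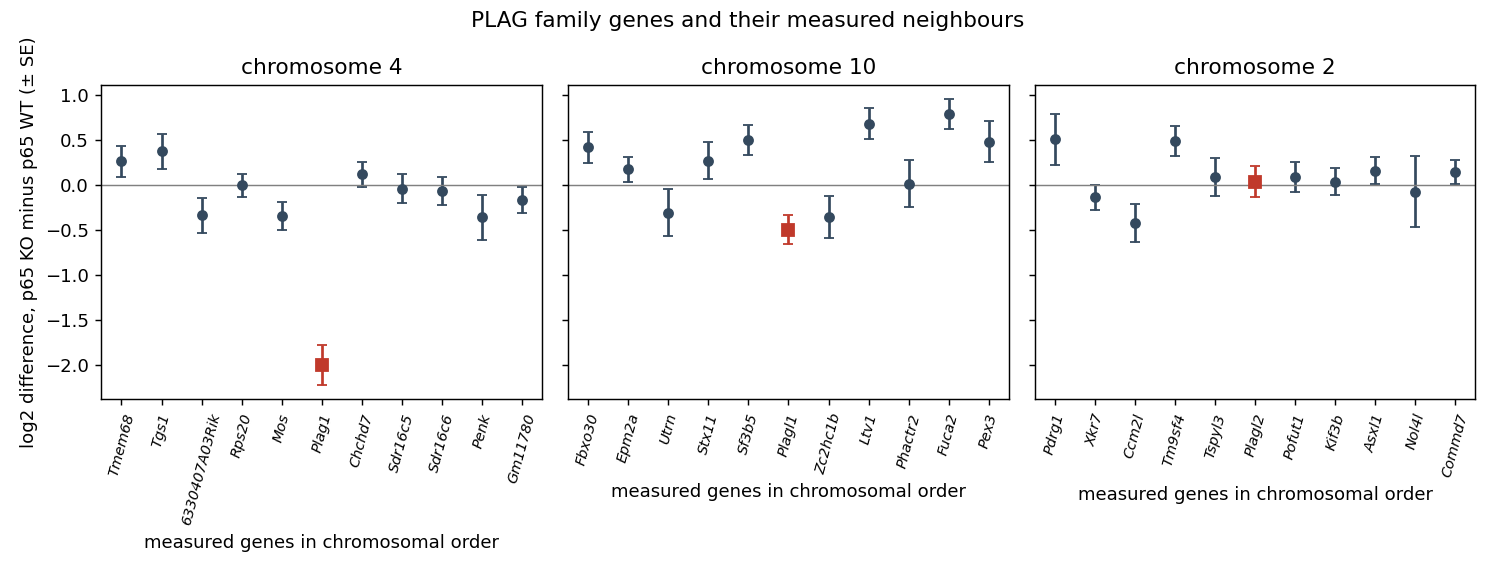
Log2 difference, p65 KO minus p65 WT, ± SE (vertical axis) of each PLAG gene (red square) and its 5 nearest measured genes on each side (circles), in chromosomal order on chromosomes 4, 10 and 2. Plag1 lies at -2.00 while its neighbours lie between -0.36 and 0.38.

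Other genes tied to PLAG factors were described from 3 lists, which share some genes. Igf2 is in all 3, and Igf2r is in the imprinted list and the IGF axis. Cdkn1c and Ascl2 are in the imprinted list and among the reported targets and partners. In the list of imprinted genes, which follows the network named for Plagl1 in the mouse, 1 of 24 measured genes fell and 0 rose, against 0.13% of all genes lower and 0.687% higher. The gene that fell is Meg3, a maternally expressed noncoding RNA gene. It had 5.69, 5.41 and 5.55 in KO and 6.52, 6.50 and 6.94 in WT, with no overlap, and in log2 units fell by 1.10, with an SE of 0.17 (limma adjusted p = 0.0359, range 0.00249 to 0.224 over 15 alternatives). The call was lost when any 1 array other than WT replicate 1 was left out. Ndn had 4.59, 4.90 and 4.88 in KO, against 6.03, 6.09 and 7.20 in WT. All its KO values lay below its WT values, and its difference of -1.65 (SE 0.30) did not pass (limma adjusted p = 0.0547, range 0.00356 to 0.275 over 15 alternatives), but did with the replicate number as a block (0.0114). With that block 2 of the 24 genes fell, Meg3 and Ndn, where 0.451% of all genes fell. Without WT replicate 1 the number was 4, with Sgce (-0.72) and Ppp1r9a (-0.75) added, where 1.38% of all genes fell. Sgce encodes epsilon-sarcoglycan and is expressed from the paternal allele.

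The median log2 difference of the imprinted list was -0.21, with 21 of 24 genes negative, where 54.1% of all genes were. In the list 8 genes had KO values all below WT values, against 15.4% of all genes. These were Ndn, Meg3, Sgce, Cdkn1c, Igf2r, Magel2, Igf2 and Dlk1, with gaps between the groups of 1.13, 0.82, 0.33, 0.22, 0.09, 0.09, 0.04 and 0.01. Of its measured genes 10 lie in the dimmest group of genes, 11 in the middle group and 3 in the brightest, and the part of signal level in the list's median was not tested. After quantile normalization the median was -0.09 with 15 genes negative, after cyclic loess normalization -0.10 with 16, and without WT replicate 1 -0.20 with 18. Array values of H19, Gnas and Snrpn were not analysed here.

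In the list of reported PLAG targets and partners 0 of 18 measured genes passed, where 0.818% of all genes did. In this list 1 gene had an unadjusted limma p under 0.05, where 21.6% of all genes did. The list's median was -0.12, against -0.04 over all genes. The median of the list was -0.03 without WT replicate 1, -0.03 with array weights and -0.04 with arrays centred on their medians. Cdkn1c, the imprinted cell cycle inhibitor gene p57 and a reported target of PLAG1 and PLAGL1, had the smallest p. It had 5.33, 5.53 and 5.37 in KO, against 5.75, 5.83 and 5.82 in WT, without overlap, a difference of -0.39 (SE 0.13, limma adjusted p = 0.162). Sftpc, a lung surfactant gene and reported PLAGL2 target, had a signal of 3.60 in KO and 3.93 in WT, both below the highest Y-linked gene. Igf2 and Msi2, and Igf2r below, were named for their known roles after values were seen. Igf2 had 5.33, 5.04 and 5.42 in KO and 6.09, 5.56 and 5.45 in WT, a difference of -0.44 (SE 0.20) that did not pass (limma adjusted p = 0.243) and was -0.25 without WT replicate 1. The KO and WT values of Igf2 did not overlap, but the nearest arrays were 0.04 apart. Msi2, reported to be regulated by PLAG1 in human cells, had 9.54, 9.82 and 9.63 in KO and 9.65, 10.1 and 10.1 in WT, with overlap (difference -0.29, limma adjusted p = 0.338, range 0.0466 to 0.581 over 15 alternatives).

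In the list of the IGF axis 0 of 17 measured genes passed, where 0.818% of all genes did. In this list 3 genes had an unadjusted limma p under 0.05, where 21.6% of all genes did. The list's median was -0.12, and it was -0.01 after quantile and 0.01 after cyclic loess normalization. Igf1, the growth factor gene, had the smallest p, with 5.26, 5.15 and 5.54 in KO and 6.07, 6.27 and 6.05 in WT. Its groups did not overlap, and the difference was -0.81 (SE 0.15, limma adjusted p = 0.0609, range 0.0124 to 0.289 over 15 alternatives). Without WT replicate 1 Igf1 passed (0.0303), as the only gene of the list in that setting. Igfbp4, which encodes an IGF-binding protein, went the other way, with 9.91, 10.2 and 10.0 in KO and 8.76, 9.71 and 9.41 in WT (difference 0.74, SE 0.24, limma adjusted p = 0.15, and 0.47 without WT replicate 1). Igf2r, the imprinted receptor gene that clears IGF2, had a difference of -0.42 (SE 0.16, limma adjusted p = 0.19).

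**Figure D5:**
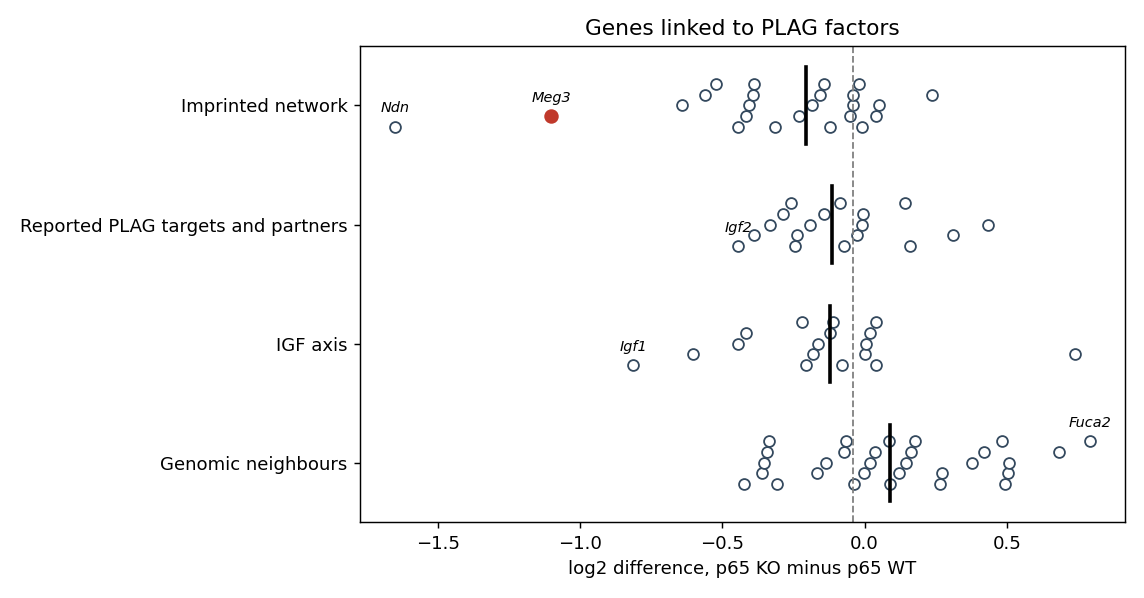
Log2 difference, p65 KO minus p65 WT (horizontal axis), of each measured gene in the 3 lists and among the genomic neighbours (rows); filled red points passed limma at an adjusted p of 0.05, open points did not, thick bars are list medians and the dashed line is the median of all genes. Meg3 is the single filled point, and Ndn lies farther left as an open point.

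The promoter windows of the listed genes were also searched for the PLAG element, and the counts carry no test. At least 1 match was found in 12 of 21 genes of the imprinted list with a window (57.1%, Gnas and Snrpn being among the 21 and Gnas among the 12), 8 of 13 of the reported targets and partners (61.5%) and 8 of 16 of the IGF axis (50%), against 24.7% of 27025 genes. Igf2bp2, whose array values were not analysed here, is among the 16 and the 8 of the IGF axis. Peg3 and Usp29 share 1 match, the same 15 bases, which is counted for both genes. Ascl2 counts as a gene with a match in the imprinted list and among the reported targets. Igf2r counts as one in the imprinted list and the IGF axis. GC content was higher in the lists, since the median of each gene's highest window was 62.7%, 69.7% and 68.8% in them and 53.3% over all genes. All 3 lists lay above all genes in both GC content and share with a match. The list of highest GC content had the highest share, and the list of lowest GC content had the middle share. The part of GC content in these shares was not tested. The windows of Meg3, Ndn, Igf2 and Igf1 had 0 matches. Igf2r is shown as an example of a listed gene with matches. Its KO and WT signals did not overlap, but the gap was 0.09, and 34.6% of all genes had groups that did not overlap. Among the other measured imprinted genes with a match, Magel2 had groups that did not overlap. Those of Dio3, Grb10, Peg3, Usp29, Mest, Copg2, Ppp1r9a, Phlda2 and Ascl2 overlapped. The Igf2r matches are a pair that overlap each other on the minus strand at chr17:12769730-12769743 and chr17:12769725-12769738. The capitals mark the fixed bases of the element.
Igf2r match 1: GAGGCggggcgGGG
Igf2r match 2: GGGGCgggggcGGG
The κB consensus was matched in 3 of the 21 genes of the imprinted list (Dio3, Ppp1r9a and Nnat), in 0 of the 13 reported targets and partners and in 2 of the 16 genes of the IGF axis (Irs1 and Igfbp5), against 9.55% of all genes.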

How the data were processed

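The values are log2 signals of 6 arrays in 1 table that the authors deposited. Per the submitters' processing notes RMA, Affymetrix Expression Console and Partek were used, with no versions, and per the labels' protocols RNA was amplified with the NuGEN Ovation Pico WTA system, which can change signal range. The design text names an exon array, while the probe annotation is that of a gene array. Of 35557 rows 21789 had 1 symbol, and the row with the highest mean was kept for each of 19938 genes. Groups came from the sample titles. Whether replicates share a litter is not given in the labels. Limma 3.58.1 (R 4.3.3) compared KO with WT on the log2 values in a two-sided test of genotype alone (4 residual degrees of freedom) with Benjamini-Hochberg adjustment over all genes at 0.05.

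The members and lists were chosen with earlier results of these data known. Genes were named by a rule: members, genes of most alike pattern (8 for Plag1, 4 each for the others, without predicted, receptor-cluster and small RNA genes), nearest neighbours, up to 6 called genes of each list or otherwise the 2 with the smallest p, and Rela. Same-numbered KO and WT arrays had correlated deviations from group means (0.368, 0.119 and 0.162, all above 0.1). The main test used no pairing, and the number entered only as a block in an alternative fit. Pairs of different number had -0.305 to 0.195, with KO replicate 3 closer to WT replicate 2 (0.195) and KO replicate 2 closer to WT replicate 3 (0.183), so the data tell numbers 2 and 3 poorly apart. The fit with the number as a block is given where it changes a call. Alternatives were that block, 3 normalizations, leaving out dim genes, 2 variance models, array weights, mean rows and leaving out each array.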

Additional observations from a re-analysis of the deposited data

How the results depend on the processing

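The Plag1 difference moved by less than its spread within groups under all 15 alternatives. After quantile and cyclic loess normalization the Plagl1 difference was -0.32 and -0.30 and the Plagl2 difference -0.27 and -0.29, and the cause was not tested. Leaving out 1 array gave -2.20 to -1.83 for Plag1, -0.57 to -0.38 for Plagl1 and -0.11 to 0.19 for Plagl2. The imprinted list had 1 call, and 2 with the replicate block, after quantile normalization, with arrays centred on their medians or without the dimmest genes, 3 after cyclic loess normalization, 5 with array weights and 0 to 4 when 1 array was left out. The reported targets had 1 call after cyclic loess normalization, and 0 when any 1 array was left out. The IGF axis had 1 without the dimmest genes, 2 with array weights and 0 to 1 when 1 array was left out. The neighbours had 1 with centred arrays or without the dimmest genes, 3 with array weights and 0 to 3 when 1 array was left out. Over all genes 163 passed (137 higher, 26 lower), and the count was 372 with the replicate block, 252 after cyclic loess normalization (154 higher, 98 lower), 314 with centred arrays, 505 without the dimmest genes, 1599 with array weights and 21 to 929 when 1 array was left out, where the highest count is without WT replicate 1. After quantile normalization 77 were higher and 38 lower. Leaving out the dimmest genes raised the median log2 difference of the genes compared by 0.18, as fewer genes entered. Of named genes that were not called, Chchd7 was -0.21 and -0.23 after quantile and cyclic loess normalization, Tspyl3 -0.14 and -0.13, and Pofut1 -0.18 and -0.17. With array weights Tspyl3 was -0.020 and Pofut1 -0.051. Leaving out 1 array gave -0.032 (without WT replicate 2) to 0.29 (without WT replicate 3) for Tspyl3 and -0.016 (without WT replicate 1) to 0.24 (without WT replicate 3) for Pofut1. Among the listed genes and stem cell markers the replicate block added calls of Ndn, Mecom, Esam and Robo4, given above, and lost none. Signal close to that of the Y-linked genes limits the sizes given for Plag1 and Plagl1.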
